A study of Mus musculus with 8 samples.

Results

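The sodium-calcium exchangers are the products of the Slc24 and Slc8 genes. The group was taken as the rows of the deposited count table named Slc24a1, Slc24a2, Slc24a3, Slc24a4, Slc24a5, Slc8a1, Slc8a2, Slc8a3 and Slc8b1, which makes 9 genes of 54532. All 9 had reads, and 8 had enough reads to be tested among 16205 genes. They were read in first molars of C57BL/6 mouse pups, with 4 libraries of Wdr72-/- pups (KO 1, 3, 4 and 5) and 4 of wild-type pups (WT 2, 3, 4 and 5). The labels give the age as postnatal day 12 and the dissection protocol as day 13. The pulp was taken out and the rest of the molar was homogenised, so the samples, labelled as enamel organ cells and ameloblasts, also hold other tissue. The Wdr72-/- colony was bought in, and neither the deleted stretch of Wdr72 nor the number of pups behind a library is stated. The p-values therefore measure the spread between these libraries, which may be technical.

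These proteins use the sodium gradient across a membrane to move calcium against its own. Members of the SLC24 family (NCKX) carry potassium out together with calcium, and members of the SLC8 family (NCX) carry calcium without potassium. In enamel the best known is SLC24A4, found at the apical membrane of maturation ameloblasts, the cells that pass calcium to hardening enamel; its loss causes hypomaturation amelogenesis imperfecta in humans and poorly mineralised enamel in mice. Loss of human WDR72, a WD40-repeat protein, causes an enamel defect of the same class.

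The libraries held 17084475 to 21887462 reads. Wdr72 itself was at 45.1 ± 38.9 CPM in KO and 243 ± 63.6 CPM in WT (CPM, reads scaled to the TMM-adjusted library total, SD, n = 4 each), with the groups apart and the highest KO value, 102 CPM, in KO 1. Its log2 fold change was -2.43 (SE 0.47), but its edgeR adjusted p was 0.080, above the threshold of 0.05. The defining markers of maturation ameloblasts, among them Amtn, Odam, Odaph, Klk4 and Itgb6, were all present, summing to 25893 to 31500 CPM in KO and 22745 to 33281 CPM in WT. Odam and Amtn carried most of that sum, and single markers differed in direction: Odaph was at 70.3 ± 19.2 CPM in KO and 34.1 ± 6.61 CPM in WT (log2 fold change 1.04, edgeR adjusted p = 0.080), and Itgb6 at 43.7 ± 18.1 CPM in KO and 73.8 ± 15.3 CPM in WT (log2 fold change -0.76, edgeR adjusted p = 0.22). Summed levels of some other cell markers also differed between the genotypes, with overlap for pulp mesenchyme. Oral keratinocyte markers summed to 149 to 261 CPM in KO and 288 to 542 CPM in WT (2 of 7 lower by edgeR's adjusted p, where 3 of 16205 genes tested were). These 2, Krt1 and Spink5, are among those 3 genes. The list was chosen with earlier results of these data known, so the counts are no test of enrichment. Macrophage markers summed to 104 to 109 CPM in KO and 76.6 to 93.4 CPM in WT. Pulp mesenchyme markers summed to 3921 to 6149 CPM in KO and 2427 to 3937 CPM in WT. Other lists overlapped too, among them secretory ameloblast markers, at 33088 to 49146 CPM in KO and 29900 to 63238 CPM in WT. Osteoclast markers summed to 341 to 652 CPM in KO and 181 to 434 CPM in WT. The part of these markers in the exchanger values was not tested. KO 5 was least like the others: its log2 CPM correlated with theirs at 0.965 on average, where the other 7 libraries had 0.980 to 0.983. The deviation of a library's genes from their mean was correlated across genes with GC content, with a Spearman correlation of -0.051 to 0.37 in KO and -0.42 to -0.16 in WT.

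Slc24a4 (ENSMUSG00000041771, GRCm38 chromosome 12, 102128733 to 102267091, plus strand) was by far the most abundant exchanger transcript. Its promoter is shown because this one gene supplied nearly all of the exchanger mRNA, beside that of Slc24a1, which supplied the least, and that of Slc8a2, the exchanger whose levels did not overlap between the genotypes. Each is RefSeq's window of 250 bases before to 50 bases after the annotated start on GRCm38.p6, written 5′ to 3′ on the gene's strand, with each CpG dinucleotide in capitals.
Slc24a4, chr12:102128477-102128776, plus strand: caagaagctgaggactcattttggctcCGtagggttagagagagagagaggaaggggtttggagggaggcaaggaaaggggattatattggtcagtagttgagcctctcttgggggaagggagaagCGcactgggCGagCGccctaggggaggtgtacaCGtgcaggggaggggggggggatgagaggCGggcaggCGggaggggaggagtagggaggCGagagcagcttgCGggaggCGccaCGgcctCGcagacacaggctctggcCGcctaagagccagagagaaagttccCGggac
Slc8a2, chr7:16129576-16129875, plus strand: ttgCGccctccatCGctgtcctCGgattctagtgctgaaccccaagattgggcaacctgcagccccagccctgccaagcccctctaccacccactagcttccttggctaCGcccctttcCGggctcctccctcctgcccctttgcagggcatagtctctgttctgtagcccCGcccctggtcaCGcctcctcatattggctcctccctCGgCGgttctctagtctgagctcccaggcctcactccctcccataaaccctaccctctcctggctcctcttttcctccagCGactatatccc
Slc24a1, chr9:64951571-64951870, minus strand: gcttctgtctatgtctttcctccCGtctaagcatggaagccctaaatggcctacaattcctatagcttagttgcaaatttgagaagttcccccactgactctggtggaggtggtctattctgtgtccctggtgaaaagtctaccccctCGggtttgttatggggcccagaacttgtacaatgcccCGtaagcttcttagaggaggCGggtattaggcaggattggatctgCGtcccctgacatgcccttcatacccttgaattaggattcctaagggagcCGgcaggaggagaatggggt
The Slc24a4 window held 14 CpG and 62.7% GC, that of Slc8a2 held 10 CpG and 61.3% GC, and that of Slc24a1 held 6 CpG and 51.0% GC. The median of the 32851 windows of all genes was 7 CpG and 52.7% GC. RefSeq windows were at hand for 8 of the 9 exchangers, and the first-listed window of Slc24a3 was the richest, with 43 CpG. The letters TATAAA, searched on both strands, were absent from these 3 windows and present in 13.6% of all windows; among the exchangers they were found in 1 of the windows of Slc24a2.

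Per length, Slc24a4 reached 201 ± 39.5 CPM per kb in KO and 251 ± 43.1 CPM per kb in WT (SD, n = 4 each), using the deposited gene length of 4522 bases. Over the 8 libraries its mean level, 226 CPM per kb, stood above 99.1% of the genes tested, whose median was 4.11 CPM per kb. Among the 51 calcium-handling genes examined (the exchangers and the lists below) it ranked 5; genes above it included Atp1b3 of the sodium pump, the calcium buffer Calb1 and the endoplasmic reticulum pump Atp2a2. It made up 93.8 ± 0.922% of the summed length-scaled exchanger level in KO and 95.5 ± 1.01% in WT.

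The other exchangers followed far below, in an order that held for some neighbours and not for others. Slc8a3 came next at 4.79 ± 0.853 CPM per kb in KO and 3.97 ± 1.39 CPM per kb in WT, and Slc24a3 stood at 3.70 ± 0.306 and 3.67 ± 0.967 CPM per kb in KO and WT. Slc24a4 exceeded Slc8a3 52.2-fold, in 8 of 8 libraries. By an exact sign-flip permutation test over the 8 libraries, two-sided and adjusted over the 8 neighbouring pairs, p was 0.0078, the smallest it can give, and adjusted p = 0.016. Slc8a3 and Slc24a3 did not differ beyond their spread (1.17-fold, Slc8a3 higher in 6 of 8 libraries, exact adjusted p = 0.36).

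Slc24a3 was above Slc8b1, and Slc8b1 above Slc8a1, in 8 of 8 libraries each (1.46-fold and 3.66-fold, exact adjusted p = 0.016 each). The next steps, Slc8a1 over Slc24a5 (6 of 8 libraries), Slc24a5 over Slc8a2 (5 of 8) and Slc8a2 over Slc24a2 (4 of 8), gave exact adjusted p of 0.087, 0.13 and 0.90. Slc24a1 came last, 16.2-fold under Slc24a2 and lower in 8 of 8 libraries (exact adjusted p = 0.016). Without scaling by length, 6 of the 9 genes kept their place, and Slc24a2, whose model is the longest at 12217 bases, moved up to the fifth.

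**Figure D1:**
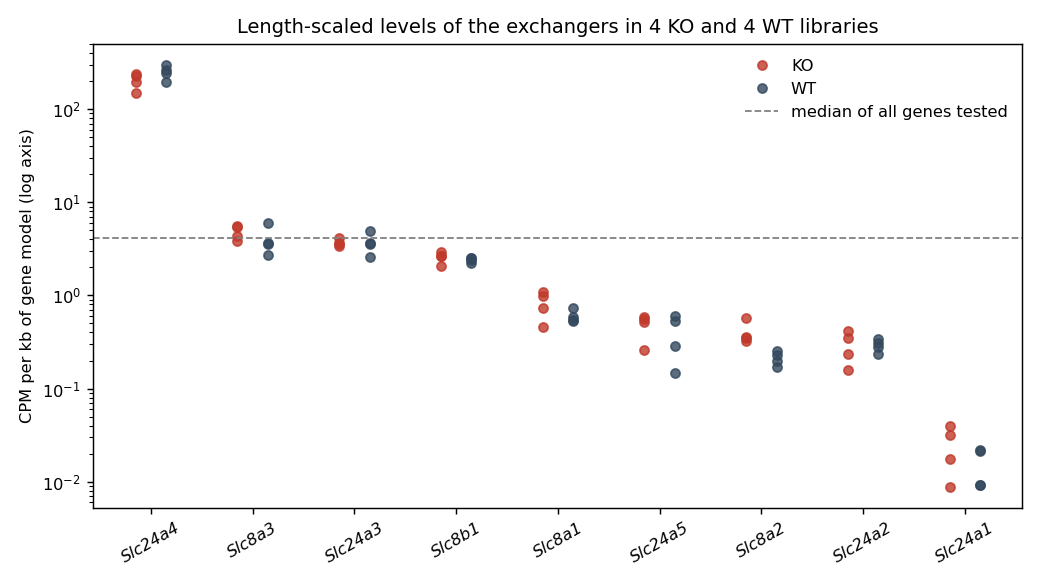
Level of each exchanger in CPM per kb of gene model, on a log axis, with 4 KO libraries (red, left) and 4 WT libraries (dark, right) as points and the median of all tested genes (4.11) as a dashed line. Slc24a4 lies far above the line in all 8 libraries, Slc8a3 and Slc24a3 lie around it, and the other 6 genes lie below it.

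No exchanger passed the threshold between the genotypes, and neither did Wdr72 itself (edgeR adjusted p = 0.080). By edgeR's quasi-likelihood test, with Benjamini-Hochberg adjustment over all genes, 0 of the 8 tested exchangers had an adjusted p under 0.05, where 0.0309% of all genes tested did (5 of 16205). At an unadjusted p under 0.05 there was 1 of 8, Slc8a2, where 15.7% of all genes tested passed. DESeq2 also called 0 exchangers, where it called 2.86% of all genes tested. Limma voom with quality weights called 1 of 8, Slc8a2, where it called 6.57% of all genes. Of the 8, 6 had a log2 fold change (KO minus WT) above 0, as did 53.1% of all genes tested. The median was 0.18 over the 8 exchangers and 0.021 over all genes tested.

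Slc24a4 read 1019, 1073, 878 and 673 CPM in KO 1, 3, 4 and 5. In WT 2, 3, 4 and 5 it read 1101, 1202, 1347 and 884 CPM. In each genotype library 5 was the lowest, and WT 5 fell inside the KO range, so the groups overlapped. The means were 911 ± 179 CPM in KO and 1133 ± 195 CPM in WT (SD, n = 4 each). The log2 fold change was -0.32 (SE 0.18), or 0.804 times the WT level with a 95% interval of 0.611 to 1.06, and the edgeR adjusted p was 0.40. The exact permutation test over the 70 arrangements of the libraries, two-sided, gave p = 0.14 (the smallest possible is 0.029).

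The direction of the Slc24a4 difference was the same under all 18 alternatives, with log2 fold changes of -0.42 to -0.19 and edgeR, DESeq2 or limma adjusted p of 0.17 to 0.78. Leaving out WT 5 gave -0.42 (edgeR adjusted p = 0.31) and leaving out KO 5 gave -0.19 (edgeR adjusted p = 0.55). With the mean level of the maturation ameloblast markers as a covariate, a list whose members differed in direction, it was -0.28 (SE 0.15, edgeR adjusted p = 0.39). With a correction for GC content it was -0.39 (SE 0.19, edgeR adjusted p = 0.45). Fewer ameloblasts in a molar and less Slc24a4 mRNA per ameloblast cannot be told apart in such samples. The Slc24a4 share of the summed exchanger level was 1.69 percentage points lower in KO, at 92.9% to 94.6% in KO and 94.0% to 96.2% in WT, with an exact permutation p of 0.086. Without WT 5 the difference was -2.18 points with an exact permutation p of 0.029, the smallest that test can give. Leaving out any other library gave an exact permutation p of 0.086 to 0.17, so whether the share difference passed turned on WT 5.

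**Figure D2:**
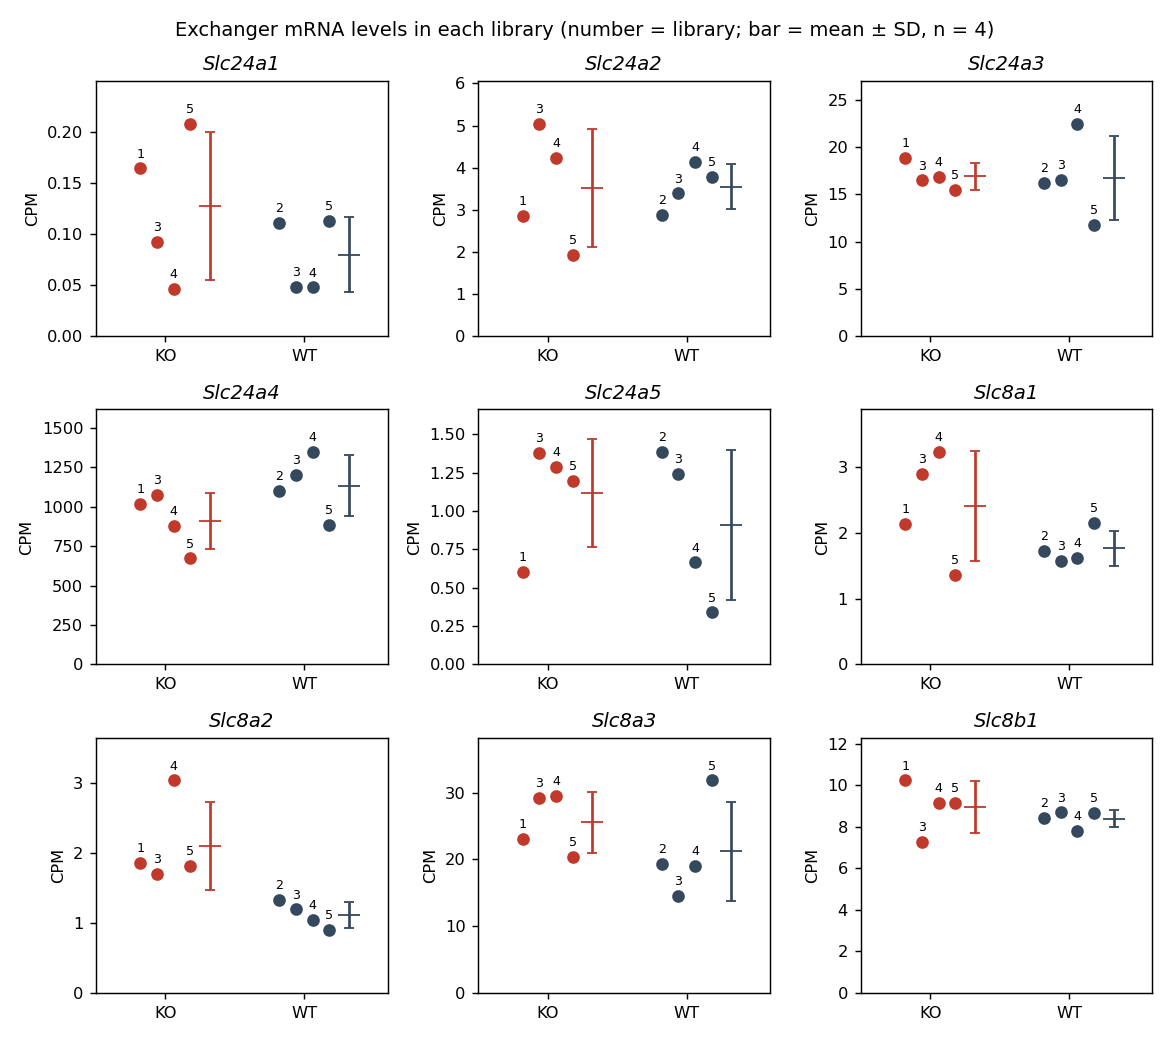
Level of each exchanger in CPM, with KO on the left and WT on the right; each point is a library with its number, and the bar is the mean ± SD of 4 libraries. Slc8a2 is the gene whose KO and WT points do not overlap, and Slc24a4 is lowest in library 5 of both genotypes.

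Slc24a3, an exchanger of brain and smooth muscle (ENSMUSG00000063873, chromosome 2, 145167754 to 145642166, plus strand), had nearly the same mean in both genotypes. It read 18.8, 16.5, 16.8 and 15.5 CPM in KO 1, 3, 4 and 5, and 16.2, 16.5, 22.5 and 11.8 CPM in WT 2, 3, 4 and 5. All KO values lay between the lowest and the highest WT value. Its log2 fold change was 0.011 (SE 0.17), with a 95% interval of 0.775 to 1.31 times the WT level, and its sign turned in 9 of 18 alternatives.

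Slc24a2, known from cone photoreceptors and neurons (ENSMUSG00000037996, chromosome 4, 86983124 to 87230477, minus strand), was at 2.84, 5.05, 4.24 and 1.92 CPM in KO 1, 3, 4 and 5. The WT libraries lay within that range, at 2.88, 3.39, 4.13 and 3.79 CPM in WT 2, 3, 4 and 5. The log2 fold change was -0.0082 (SE 0.28), and its sign turned in 8 of 18 alternatives. Without KO 1 and KO 5 it was 0.38 (SE 0.22, edgeR adjusted p = 0.53).

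Slc24a5, which works inside melanosomes, the pigment granules of melanocytes (ENSMUSG00000035183, chromosome 2, 125068124 to 125088677, plus strand), had 11, 30, 28 and 23 reads in KO 1, 3, 4 and 5 and 25, 26, 14 and 6 reads in WT 2, 3, 4 and 5. The means were 1.12 ± 0.351 CPM in KO and 0.907 ± 0.490 CPM in WT, and the groups overlapped (log2 fold change 0.30, SE 0.42, edgeR adjusted p = 0.74). Over the 18 alternatives it ran from 0.040 (SE 0.39) without WT 5 to 0.88 (SE 0.47) with the replicate block, and was 0.55 without WT 2 and 0.50 without KO 1. This count is uncertain. Myef2 on the opposite strand shares 921 exonic bases with Slc24a5 and had 6816 reads against 163 of Slc24a5 over all libraries, and the strand setting of the counting is not given in the sources used here. Of the 8 melanocyte markers, Tyr, the enzyme that starts melanin synthesis, was at 0 CPM in KO and 0.012 ± 0.024 CPM in WT, and Mlana at 0.048 ± 0.065 CPM in KO and 0.038 ± 0.046 CPM in WT. The list summed to 14.1 to 20.6 CPM in KO and 19.1 to 22.04 CPM in WT, carried mostly by Mitf and Dct.

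Slc24a1, the exchanger of rod photoreceptors (ENSMUSG00000034452, chromosome 9, 64922861 to 64951607, minus strand), was at the edge of detection. It had 3, 2, 1 and 4 reads in KO 1, 3, 4 and 5 and 2, 1, 1 and 2 reads in WT 2, 3, 4 and 5. It was too low to be tested, and a difference between the genotypes was not detectable at this depth. The photoreceptor markers, among them Gnat1, Pde6b and Sag, summed to 2.68 to 4.06 CPM in KO and 2.42 to 4.35 CPM in WT.

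Slc8a2, the exchanger NCX2 of brain neurons (ENSMUSG00000030376, chromosome 7, 16129826 to 16161063, plus strand), was higher in every KO library than in any WT library. It read 1.86, 1.70, 3.04 and 1.82 CPM in KO 1, 3, 4 and 5, against 1.33, 1.19, 1.04 and 0.904 CPM in WT 2, 3, 4 and 5. These levels rest on 34, 37, 66 and 35 reads in KO and on 24, 25, 22 and 16 reads in WT. The gap between the lowest KO and the highest WT library was small, and KO 4 stood well above the other KO libraries. Groups that do not overlap were seen in 1 of the 8 tested exchangers and in 10.9% of all genes tested. Genes without overlap and higher in KO, as Slc8a2 was, made up 5.5% of all genes tested. The log2 fold change was 0.91 (SE 0.28), or 1.88 times the WT level with a 95% interval of 1.23 to 2.88. The edgeR adjusted p was 0.18, and the exact permutation test gave p = 0.029, the smallest it can give.

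The Slc8a2 difference was above 0 in all 18 alternatives, from 0.68 without KO 4 to 1.08 without KO 1 and KO 5. The limma voom fit with quality weights brought it past the threshold (log2 fold change 0.96, SE 0.26, adjusted p = 0.042), and DESeq2 did not (0.90, SE 0.32, adjusted p = 0.089). The longest Slc8a2 transcript has 58.5% GC, against a median of 49.7% for the genes tested, and with a correction for GC content the log2 fold change was 0.73 (SE 0.29, edgeR adjusted p = 0.36). Beside the other cell markers given above, markers of neurons and Schwann cells summed to 102 to 133 CPM in KO and 74.8 to 104 CPM in WT. Of the 8 markers in that list, 4 were higher in KO at an unadjusted p under 0.05 and 0 lower, where 8.7% of all genes tested were higher and 6.98% lower. Tubb3, a neuronal tubulin, was at 53.0 ± 7.52 CPM in KO and 34.4 ± 3.70 CPM in WT, whereas Snap25, a synaptic protein, was at 12.4 ± 3.90 CPM in KO and 14.1 ± 4.20 CPM in WT. The part of these markers in the Slc8a2 difference was not tested.

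Slc8a3, the exchanger NCX3 of brain and skeletal muscle (ENSMUSG00000079055, chromosome 12, 81197915 to 81333180, minus strand), read 23.1, 29.2, 29.5 and 20.4 CPM in KO 1, 3, 4 and 5. In WT 2, 3, 4 and 5 it read 19.3, 14.6, 19.04 and 31.8 CPM. WT 5 held the highest value of all 8 libraries, and the other WT libraries lay below every KO library. The means were 25.6 ± 4.55 CPM in KO and 21.2 ± 7.42 CPM in WT, with a log2 fold change of 0.27 (SE 0.22, edgeR adjusted p = 0.53). Without WT 5 it was 0.54 (SE 0.17, edgeR adjusted p = 0.19), and without WT 3 it was 0.13 (SE 0.21, edgeR adjusted p = 0.81). Skeletal muscle markers summed to 48.2 to 105 CPM in KO and 57.2 to 99.8 CPM in WT, with WT 5 the lowest of the WT libraries. Odontoblast and bone markers summed to 31834 to 59102 CPM in KO and 28843 to 56744 CPM in WT. Like Slc8a3, they were highest in WT 5 among WT, and highest in KO 4 and lowest in KO 5 among KO. The part of either list in the Slc8a3 values was not tested. With quality weights in limma voom the log2 fold change of Slc8a3 was 0.63 (SE 0.17, adjusted p = 0.053).

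Slc8a1, the exchanger NCX1 that clears calcium from heart muscle (ENSMUSG00000054640, chromosome 17, 81388691 to 81649607, minus strand in the deposited table), read 2.13, 2.89, 3.22 and 1.35 CPM in KO 1, 3, 4 and 5 and 1.72, 1.58, 1.61 and 2.15 CPM in WT 2, 3, 4 and 5. KO 3 and KO 4 were above all WT libraries, and KO 5 was below them. The log2 fold change was 0.45 (SE 0.29, edgeR adjusted p = 0.44), 0.28 without KO 4 and 0.79 without KO 1 and KO 5 (edgeR adjusted p = 0.26). With the correction for GC content it was 0.60 (SE 0.26, edgeR adjusted p = 0.40). The level is tied to a partial gene model. The deposited length is 2934 bases, while GENCODE M21, on the same build, gives the gene 18807 exonic bases between 81373105 and 81738377, and RefSeq's promoter window lies at 81738338 to 81738637, outside the deposited span. Reads over the rest of the gene were therefore not in this count, and its place in the order above holds for the deposited model. The other 8 exchangers had the same start, end and exonic length in both annotations.

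Slc8b1, the sodium, lithium and calcium exchanger NCLX of the inner mitochondrial membrane (ENSMUSG00000032754, chromosome 5, 120511168 to 120534024, plus strand), had the smallest SE of the 8. It read 10.2, 7.25, 9.16 and 9.15 CPM in KO 1, 3, 4 and 5, and 8.42, 8.69, 7.79 and 8.65 CPM in WT 2, 3, 4 and 5. The KO libraries spanned the WT range on both sides. Its log2 fold change was 0.093 (SE 0.14), with a 95% interval of 0.859 to 1.32 times the WT level, so that an increase beyond 1.32-fold or a decrease below 0.859 times lay outside it. The sign turned in 2 of 18 alternatives.

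**Figure D3:**
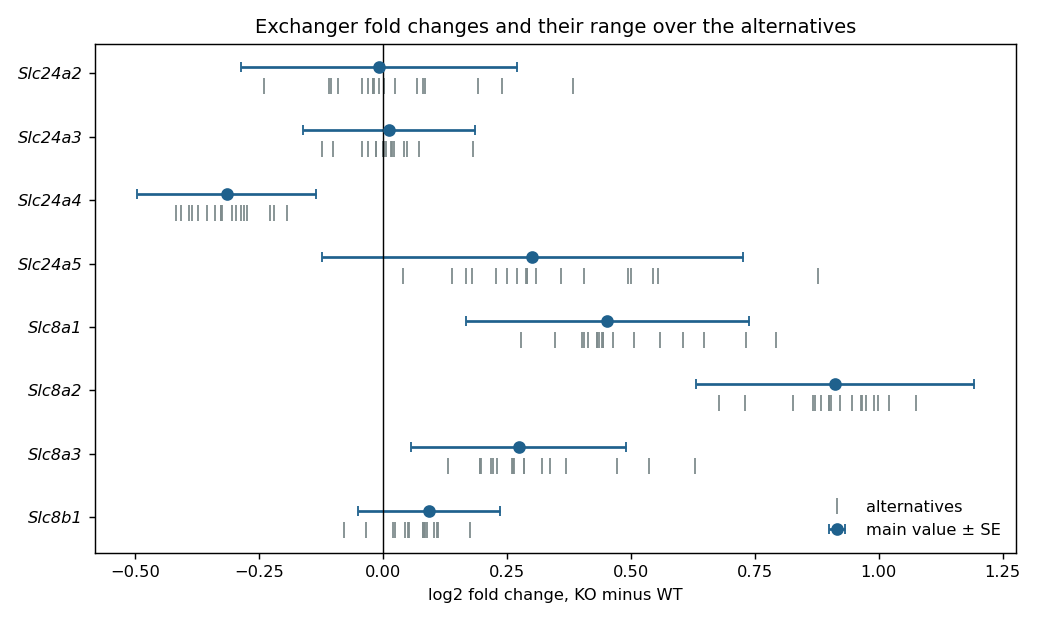
Log2 fold change, KO minus WT, of the 8 tested exchangers, with the edgeR value ± SE as a point and each of the 18 alternatives as a grey tick. The ticks of Slc24a4 all lie below 0 (-0.42 to -0.19) and those of Slc8a2 all above it (0.68 to 1.08), while those of Slc24a2, Slc24a3 and Slc8b1 fall on both sides.

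The genes that the exchangers work beside were compared in 7 lists, with 38 of 42 genes tested. By edgeR 0 of the 38 passed the adjusted threshold, and at an unadjusted p under 0.05 there were 2 higher and 1 lower, where 8.7% of all genes tested were higher and 6.98% lower. DESeq2 also called 0 of 38. Limma voom with quality weights called 3 of 38, Orai1 and Atp2b3 as higher and S100g as lower, beside its 6.57% of all genes. For Atp2b3 limma voom gave a log2 fold change of 1.06 (adjusted p = 0.049). EdgeR gave it 0.29 (adjusted p = 0.75) and DESeq2 0.28 (adjusted p = 0.78). Its groups overlapped, and its highest library was WT 5 at 5.82 CPM. The plasma membrane calcium pumps, the other route by which calcium leaves a cell, had a median log2 fold change of 0.012 over 4 genes, with 2 above and 2 below 0. Atp2b1 was at 386 ± 111 CPM in KO and 466 ± 73.3 CPM in WT, and Atp2b4 at 115 ± 36.5 CPM in KO and 141 ± 9.08 CPM in WT. Both had intervals that included no difference, at 0.609 to 1.13 times the WT level for Atp2b1 and 0.594 to 1.11 times for Atp2b4.

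All 5 pumps of the endoplasmic reticulum and Golgi had log2 fold changes below 0 with a median of -0.18, and 0 passed even unadjusted. Atp2c1, a Golgi calcium and manganese pump, was at 130 ± 23.2 CPM in KO and 152 ± 18.2 CPM in WT, and Atp2c2 at 1.26 ± 0.408 CPM in KO and 1.58 ± 0.292 CPM in WT. Among the store-operated entry genes (8 tested, median 0.053) Orai1, the pore of the calcium channel that opens when stores empty, was at 50.9 ± 15.3 CPM in KO and 32.4 ± 7.40 CPM in WT (log2 fold change 0.65, SE 0.20, edgeR adjusted p = 0.19). Itpr2, an IP3 receptor, was at 92.4 ± 25.7 CPM in KO and 117 ± 2.69 CPM in WT (log2 fold change -0.35, SE 0.18, edgeR adjusted p = 0.36). It was lower in every KO library than in any WT library (exact permutation p = 0.029), though KO 1 at 114 CPM lay close to WT 5 at 115 CPM. Groups without overlap were seen in 10.9% of all genes tested.

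Among the cytosolic calcium binding proteins (6 of 7 tested, median -0.030) S100g, calbindin-D9k, was at 2.32 ± 1.14 CPM in KO and 4.16 ± 0.555 CPM in WT (log2 fold change -0.85, SE 0.32, edgeR adjusted p = 0.25), and Calm3, a calmodulin gene, at 263 ± 58.5 CPM in KO and 232 ± 30.6 CPM in WT. Of the epithelial channels 2 of 4 were tested: Trpm7 was at 1581 ± 441 CPM in KO and 2054 ± 139 CPM in WT (log2 fold change -0.38, SE 0.20, edgeR adjusted p = 0.38), and Trpv6 at 3.13 ± 0.815 CPM in KO and 4.20 ± 0.576 CPM in WT (log2 fold change -0.42, SE 0.22, edgeR adjusted p = 0.36). The groups of Trpm7 did not overlap (exact permutation p = 0.029), though KO 3 at 1930 CPM lay close to WT 5 at 1935 CPM. Those of Trpv6 overlapped.

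The mitochondrial uptake genes, which bring in the calcium that the Slc8b1 protein lets out, had a median of 0.17 over 7 genes, 5 above and 2 below 0. Letm1, a protein of the inner mitochondrial membrane, was at 118 ± 11.4 CPM in KO and 104 ± 7.97 CPM in WT. The sodium pump, which builds the gradient that drives the exchangers, had a median of 0.28 over 6 tested genes, 5 above and 1 below 0. Atp1b1, a beta subunit, was at 89.4 ± 15.5 CPM in KO and 71.3 ± 19.2 CPM in WT.

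**Figure D4:**
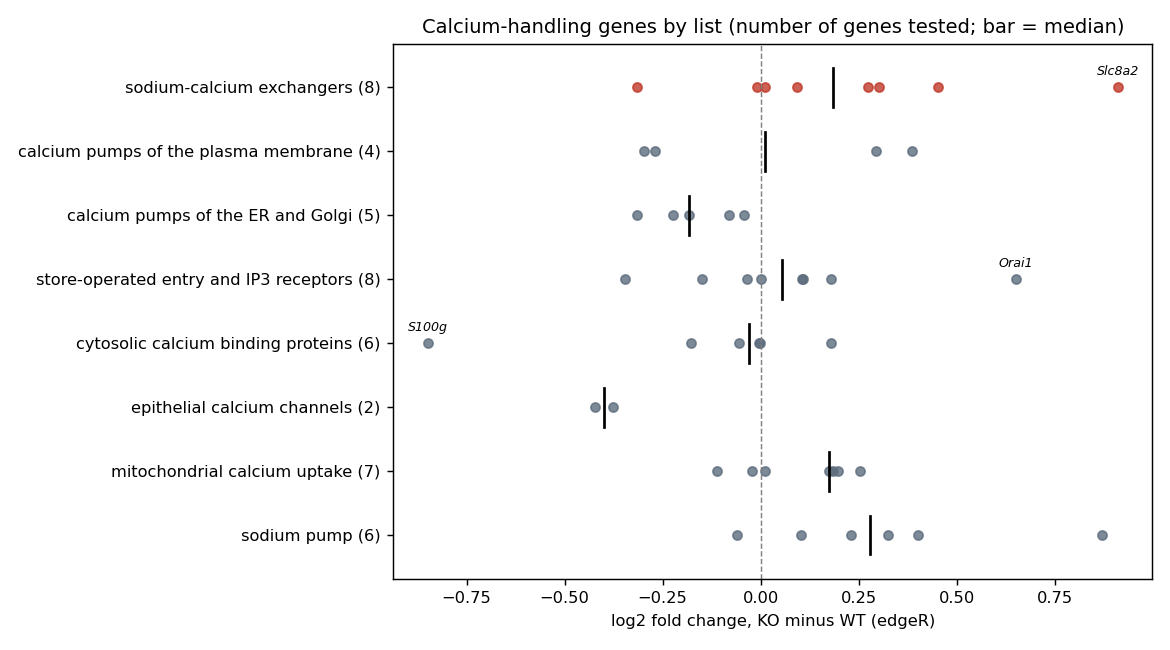
Log2 fold change, KO minus WT, of each tested gene in the exchanger group (red) and in 7 lists of calcium-handling genes (grey), with the median of each list as a bar and its number of tested genes in brackets. The named points are Slc8a2 (0.91), Orai1 (0.65) and S100g (-0.85), of which 0 passed the adjusted threshold in edgeR.

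The genes closest to Slc24a4 in their pattern over the 8 libraries were found by the root mean square difference of log2 CPM, each gene centred on its own mean, among 14250 protein-coding genes tested. They were Sh3bgrl2 (0.068), Dynlt3 (0.079) and Plekha6 (0.082), where the median gene differed by 0.38 and Slc24a4 itself had an SD of 0.31. For Slc8a3, whose SD was 0.39, they were Sec16b (0.072), Tbx3 (0.083) and Fbn2 (0.087). With so many genes and 8 libraries, some are close whatever their function.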

How the data were processed

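RNA of 8 molar samples was sequenced after polyA capture, per the labels' protocols. The authors deposited raw counts of reads for each Ensembl gene in each library, with a gene length that sets CPM per kb here. The submitters' processing notes name CASAVA and mm39, but the table's coordinates are those of GRCm38: GENCODE M21 held 54495 of the 54532 gene IDs, 98.8% of them at an identical start. For the aligner, the counter and the strand setting, nothing is given in the sources used here.

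Genes were kept by filterByExpr (minimum count 10, minimum total 15) and scaled by TMM. KO was compared with WT by edgeR 4.0.16 in R 4.3.3 (quasi-likelihood, robust, two-sided, no covariate), adjusted by Benjamini-Hochberg over all 16205 genes; the threshold was 0.05. SE was derived from the log2 fold change and its F statistic, and 95% intervals use the fit's degrees of freedom. The fit was tested on simulated counts. Alternatives used DESeq2 1.42.0, limma 3.58.1, other scalings, no filter, covariates, a replicate block and left-out libraries; the GC correction was chosen after seeing the data. Log2 CPM used a prior count of 2.

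The 9 genes, the lists and the tests were chosen with earlier results of these data known. The genes named were the exchangers, Wdr72, and from each list up to 4 genes past the threshold or else the 2 with the smallest p; some genes that this rule names are not reported here. Marker genes named in the text were chosen after their values were seen.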

Additional observations from a re-analysis of the deposited data

Results flagged for a closer look

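Slc8a2 in KO 4, at 3.04 CPM, stood apart from the other 3 KO libraries, which had 1.70 to 1.86 CPM: its gap to the next library was 0.879 of the whole KO range, above the 0.829 that marks an outlier among 4 values at the 95% level. It was the only such value among 20 groups of 4 examined, of which chance gives about 1 in 20. Without KO 4 the log2 fold change of Slc8a2 was 0.68 (SE 0.28, edgeR adjusted p = 0.29).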

How the results depend on the processing

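The count of all genes past the threshold was 5, and 2 with library totals, 241 with no low-count filter, 464 with DESeq2, 1065 with limma voom, 11 without KO 1 and KO 5, and 0 to 55 when 1 library was left out. The count of exchangers was 0 in every alternative other than limma voom, where it was 1. Same-numbered libraries did not deviate together (correlations of -0.14, -0.092 and -0.12 for numbers 3, 4 and 5). Libraries of different numbers gave -0.24 to 0.27, so 3 such values cannot decide whether the numbers pair the samples. A block on the number gave 1 gene and 0 exchangers. The Slc24a4 share differed by -2.18 to -1.40 points with 1 library left out and by -1.92 over the number pairs. The order of levels kept 6 places without length.

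Direction held in all 18 alternatives for Slc24a4, Slc24a5, Slc8a1, Slc8a2 and Slc8a3. The log2 fold change of Slc24a2 turned to 0.0021 with no filter, 0.24 with voom, 0.084 with the GC correction, 0.080 without KO 1, 0.19 without KO 5, 0.068 without WT 4, 0.024 without WT 5 and 0.38 without KO 1 and KO 5, and ran from -0.24 to 0.19 with 1 library left out. That of Slc24a3 turned to -0.00091 with DESeq2 size factors, -0.030 with library totals, -0.00052 with DESeq2, -0.014 with the block, -0.10 with the GC correction, -0.042 without KO 1, -0.014 without WT 2, -0.12 without WT 5 and -0.014 without KO 1 and KO 5, and ran from -0.12 to 0.18 with 1 library left out. That of Slc8b1 turned to -0.079 with the GC correction and -0.033 without KO 1 and KO 5. The cause was not tested. Depth limits Slc24a1, Slc24a5, Slc8a1 and Slc8a2, which had under 100 reads in each library.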
